A study of Homo sapiens with 6 samples.

Results

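The genes described here were 10 hypoxia-induced genes that do not encode glycolytic enzymes or glucose transporters, namely ADM, CA9, CA12, NDRG1, DDIT4, BNIP3, BNIP3L, ANKRD37, P4HA1 and KDM3A. They were found by exact match of the gene name in the count tables, without use of their values, and all 10 were among the 32029 genes listed. The list itself was chosen with earlier results of these data known. All 10 also passed the filter on low counts, which kept 14996 genes. The cells were SW480, a line from a human colorectal adenocarcinoma, of wild-type genotype per the labels. In 3 cultures the cells were transfected with a control siRNA (siControl, siNC in the labels), and in the other 3 with siRNA against ZEB1 (siZEB1), a transcription factor that represses epithelial genes. RNA was taken 48 h after transfection, no incubation at low oxygen is described for these cultures, and how many different siRNAs against ZEB1 were used is not given in the sources used here. The samples of a group are described in the methods as biological replicates, and all come from the same cell line.

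When oxygen falls, prolyl hydroxylases of the EGLN family stop marking the α subunit of the hypoxia-inducible factors (HIF), VHL no longer directs its destruction, and HIF binds DNA with ARNT. HIF then switches on genes that shift metabolism, vessel growth, acid handling, mitochondrial turnover and matrix synthesis, and the 10 genes belong to these branches outside glycolysis. Several of them also answer to other signals, such as nutrient stress and endoplasmic reticulum stress, and in tumours CA9 and NDRG1 are widely used as hypoxia markers.

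Promoter sequences are shown for ADM, DDIT4, CA9 and CA12, since these are a secreted factor and a stress gene that rose and the pair of membrane carbonic anhydrases, and their windows differ in the hypoxia-type and ZEB1-type motifs that they hold. Each window runs from 250 bases before to 50 bases after a gene start in RefSeq's table for GRCh38.p14 and is written 5′ to 3′ along the gene. They lie at chr11:10304823-10305122 on the plus strand (ADM), chr10:72273674-72273973 on the plus strand (DDIT4), chr9:35673678-35673977 on the plus strand (CA9) and chr15:63381797-63382096 on the minus strand (CA12). Capitals mark ACGTG and GCGTG, the core of the HIF-binding element, and in CA9 also CACCTG, the E-box that ZEB1 can bind, each on either strand, so that some appear as their reverse complement.
ADM: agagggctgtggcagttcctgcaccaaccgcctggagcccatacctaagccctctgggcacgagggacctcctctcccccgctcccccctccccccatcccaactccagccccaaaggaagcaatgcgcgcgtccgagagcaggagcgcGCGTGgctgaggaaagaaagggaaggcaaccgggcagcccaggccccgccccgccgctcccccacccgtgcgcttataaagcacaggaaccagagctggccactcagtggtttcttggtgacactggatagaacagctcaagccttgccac
DDIT4: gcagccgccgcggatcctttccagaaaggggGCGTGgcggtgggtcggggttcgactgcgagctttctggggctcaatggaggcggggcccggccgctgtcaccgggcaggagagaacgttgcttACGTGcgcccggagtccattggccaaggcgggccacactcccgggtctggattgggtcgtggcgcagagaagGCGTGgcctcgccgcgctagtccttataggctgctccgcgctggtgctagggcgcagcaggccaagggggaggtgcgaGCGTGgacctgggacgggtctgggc
CA9: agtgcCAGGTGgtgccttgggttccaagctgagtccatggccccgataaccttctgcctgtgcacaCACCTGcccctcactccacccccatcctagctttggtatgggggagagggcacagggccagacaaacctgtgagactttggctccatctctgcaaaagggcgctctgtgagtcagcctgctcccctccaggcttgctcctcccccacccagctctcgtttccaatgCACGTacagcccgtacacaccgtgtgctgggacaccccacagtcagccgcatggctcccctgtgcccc
CA12: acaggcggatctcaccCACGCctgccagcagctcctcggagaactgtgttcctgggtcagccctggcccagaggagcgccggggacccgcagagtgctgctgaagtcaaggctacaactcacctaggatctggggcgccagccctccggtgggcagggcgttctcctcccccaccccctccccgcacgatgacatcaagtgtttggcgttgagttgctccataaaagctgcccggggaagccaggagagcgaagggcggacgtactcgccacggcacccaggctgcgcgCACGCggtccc

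Of the 10 genes, 8 had a window in this table, all but NDRG1 and BNIP3L. Each of the 8 held a HIF-type core, 5 of them ACGTG and 5 GCGTG. KDM3A had 2 windows, which share the same GCGTG. These counts are per gene, whereas the shares given next are per window. Of all 35116 windows in the table, 48.4% held at least 1 of these cores. ACGTG was in 21.4% of all windows and GCGTG in 36.5%. The number of core matches on either strand was 6 in BNIP3, 4 in DDIT4, 3 in ANKRD37 and 2 in CA12, and ADM, CA9, P4HA1 and KDM3A had 1 each. In BNIP3 and in ANKRD37, 2 of the matches overlap in 1 CACGTG, which reads the same on both strands and was counted on each. The short motif CACCTG, found in 20.6% of all windows, was present for 1 of the 8 genes, CA9, where it occurred at positions -245 and -184 from the start. The windows of the 8 genes were 62.0% to 80.7% G and C. The shares over all windows are for any base content, and none was computed for windows of like G and C. They are therefore no measure of enrichment. A match of letters is a description of the window and not a measured binding site.

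The counts assigned to genes summed to between 19040636 and 22357633 per culture. ZEB1, the target of the siRNA, had 1247, 1276 and 908 counts in the siControl cultures and 136, 132 and 162 in the siZEB1 cultures. Its level fell from 54.2 ± 6.24 to 7.51 ± 0.843 CPM (counts of a gene relative to the TMM-adjusted total of the library, mean ± SD, n = 3). Its log2 fold change was -2.85 (SE 0.11, edgeR quasi-likelihood test, Benjamini-Hochberg adjusted p = 4.85e-12), so the labels and the target gene had the same direction. The epithelial keratins KRT8 and KRT18 were abundant in both groups (KRT8 3455 ± 159.5 and 3534 ± 200.4 CPM). Of 11 colon epithelium markers, 10 had counts and CDX1 was not listed, and their summed level was 4816 to 5438 CPM with siControl and 5329 to 6002 CPM with siZEB1. Most of this sum was KRT8 and KRT18 (KRT18 1418 ± 150.0 and 1460 ± 124.0 CPM). CEACAM5 and GPA33 were below the filter on low counts. EPCAM, VIL1 and KRT19 were higher and CDX2 and LGR5 lower with siZEB1. Of 13 markers of fibroblasts, endothelium and leukocytes, 9 had counts, DCN, CDH5, KDR and PTPRC were not listed, and the summed level was 12.4 to 13.9 CPM and 10.4 to 12.7 CPM.

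The 10 genes did not move together after ZEB1 knockdown. ADM, DDIT4, KDM3A and P4HA1 were higher in the siZEB1 cultures, NDRG1 and CA12 were lower, and CA9, ANKRD37, BNIP3L and BNIP3 were not called. The call of P4HA1 was near the threshold (adjusted p = 0.0432 in edgeR's test) and was lost in 8 of 12 alternatives. ADM and DDIT4 rose 1.92-fold and 1.76-fold, whereas NDRG1, the most abundant of the 10, fell to 0.584 times its control level. Calls were made at an adjusted p under 0.05 in edgeR's test over all 14996 genes, where 19.0% of genes were called higher and 21.2% lower, 40.2% in all. The 4 genes called higher and 2 called lower among 10 have to be read against this wide background. In bulk RNA, fewer cells that express a gene and less of its RNA per cell cannot be told apart. The median log2 fold change of the 10 was 0.030, and that of all genes tested was -0.0055. The cultures of the 2 groups did not overlap for 6 of the 10, against 49.5% of all genes tested. Where calls also had to exceed a 1.5-fold change, at an unadjusted p under 0.001, ADM and DDIT4 were higher, where 4.52% of all genes were, and NDRG1 was lower, where 6.70% were. With an unadjusted p under 0.05 the same genes passed, against 7.21% and 9.35% of all genes.

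**Figure D1:**
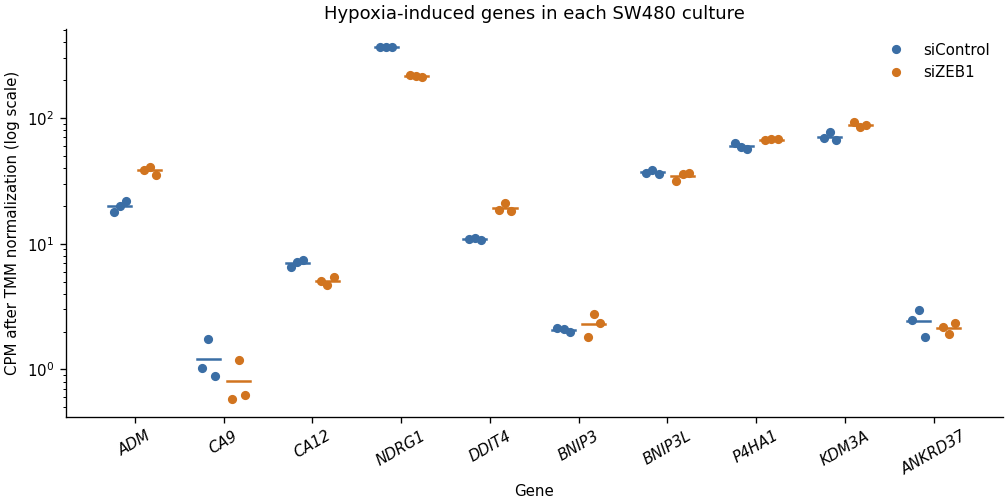
Level of each of the 10 genes in each culture, as CPM after TMM normalization on a log scale (vertical axis), by gene (horizontal axis), with points for the 3 siControl and 3 siZEB1 cultures and short lines for the means. The siZEB1 points of ADM and DDIT4 lie above all siControl points, those of NDRG1 and CA12 lie below, and those of CA9, BNIP3, BNIP3L and ANKRD37 overlap.

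**Figure D2:**
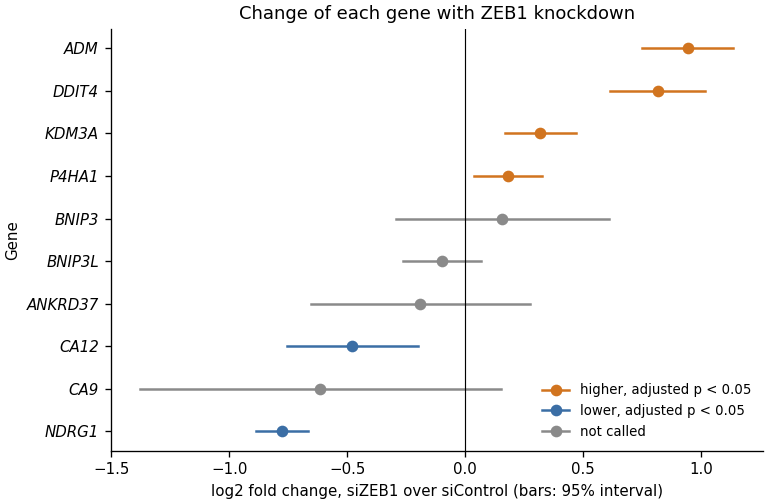
Change of each of the 10 genes on the log2 scale, siZEB1 over siControl (horizontal axis), ordered by size, with points for the fitted value and bars for its 95% interval. The intervals of ADM, DDIT4, KDM3A and P4HA1 lie wholly above 0 and those of CA12 and NDRG1 wholly below it, and the bar of CA9, from -1.38 to 0.15, is the widest.

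Levels per kilobase of exon spanned a wide range in control cells. The length is that of all annotated exons of a gene together and not of the transcript in use. For DDIT4, CA9 and ANKRD37, and to a smaller extent BNIP3L and P4HA1, part of it is shared with a gene on the opposite strand. The order between genes is therefore approximate. NDRG1 stood at 37.4 CPM per kilobase, P4HA1 at 19.2, BNIP3L at 8.57 and ADM at 7.31, and the cultures of neighbours in this order did not overlap. DDIT4 (5.31) and KDM3A (5.27) overlapped each other. CA12 (0.966), ANKRD37 (0.943) and CA9 (0.730 CPM per kilobase) were low and each overlapped its neighbour, and BNIP3 was lowest at 0.387. With siZEB1, NDRG1 (21.8) and P4HA1 (21.8 CPM per kilobase) overlapped at the top, and ADM (14.1) and DDIT4 (9.35) stood above BNIP3L (8.01) and KDM3A (6.58), all without overlap between neighbours. The low end then held ANKRD37 (0.833), CA12 (0.693), CA9 (0.480) and BNIP3 (0.432 CPM per kilobase), with overlap from CA12 down.

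ADM encodes adrenomedullin, a secreted peptide that widens vessels and acts on endothelium. It is a gene on the plus strand of chromosome 11 from 10304680 to 10307397 (GRCh38, GENCODE 29). It had 378, 445 and 424 counts in the siControl cultures and 722, 789 and 677 in the siZEB1 cultures, equal to 17.8, 19.9 and 22.0 against 38.2, 41.0 and 35.4 CPM. Every siZEB1 culture was well above every siControl culture. The level rose from 19.9 ± 2.11 to 38.2 ± 2.83 CPM (log2 fold change 0.94, SE 0.091, 95% interval 0.75 to 1.14, edgeR adjusted p = 3.84e-07). Among all genes tested this ranked 467 by the size of the rise. The ADM window shown above holds its GCGTG core at position -101 from RefSeq's gene start and no CACCTG. That start differs from GENCODE's, and the whole window lies inside the span that GENCODE gives the gene. The same holds for the CA12 window.

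Genes around adrenomedullin went both ways. ADM2, which encodes a related peptide, rose from 4.27 ± 0.663 to 8.75 ± 0.974 CPM (log2 fold change 1.04, SE 0.15, edgeR adjusted p = 2.49e-05). PAM, the enzyme that amidates the peptide's end and is needed for its activity, fell from 236.4 ± 18.4 to 130.0 ± 4.99 CPM (log2 fold change -0.86, SE 0.066, adjusted p = 2.63e-08). PAM is also among the genes that the study itself picked from these libraries. The receptor genes CALCRL, RAMP1, RAMP2 and RAMP3 were below the filter or not listed, so the receptor side could not be tested.

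DDIT4 encodes REDD1, which restrains the growth kinase mTORC1 under hypoxia, energy stress and glucocorticoids. It lies on the plus strand of chromosome 10 from 72273920 to 72276036. It had 233, 248 and 207 counts in the siControl cultures and 352, 403 and 347 in the siZEB1 cultures, equal to 11.0, 11.1 and 10.7 against 18.6, 21.0 and 18.1 CPM. The control cultures lay close together and all siZEB1 cultures were above them. The rise was from 10.9 ± 0.171 to 19.2 ± 1.51 CPM (log2 fold change 0.82, SE 0.096, 95% interval 0.61 to 1.02, edgeR adjusted p = 3.3e-06). Exons of the antisense gene DDIT4-AS1 overlap 41.2% of the exonic bases of DDIT4, and the counting's use of strand is not given in the sources used here, so reads of the pair could not be told apart. DDIT4-AS1 itself was not among the genes listed, so its level is not known. The DDIT4 window above holds 1 ACGTG and 3 GCGTG cores.

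Of 5 other genes tested that restrain mTORC1, SESN2 was higher, TSC2 was lower and 3 were not called, shares close to the 19.0% and 21.2% of all genes. SESN2, a leucine sensor induced by stress, rose from 22.4 ± 0.0482 to 41.7 ± 1.47 CPM (log2 fold change 0.90, SE 0.075, edgeR adjusted p = 6.98e-08), a rise of similar size to that of DDIT4. TSC2, a subunit of the complex through which DDIT4 acts, had a log2 fold change of -0.40 (edgeR adjusted p = 0.000194). Here and in the following paragraphs, genes such as TSC2 that the naming rule did not cover are named to make small counts readable, and were chosen after their values were seen.

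NDRG1 encodes a cytoplasmic protein of the N-myc downstream regulated family that is tied to differentiation and stress and is strongly hypoxia-induced in many epithelia. It lies on the minus strand of chromosome 8 from 133237171 to 133302022. It had 7838, 8194 and 7063 counts in the siControl cultures and 4126, 4115 and 4019 in the siZEB1 cultures, equal to 369, 366 and 366 against 219, 214 and 210.0 CPM. Within each group the cultures were nearly equal, and the 2 groups were far apart. NDRG1 fell from 367 ± 1.44 to 214 ± 4.29 CPM (log2 fold change -0.78, SE 0.053, 95% interval -0.89 to -0.67, edgeR adjusted p = 5.72e-09). By the size of the fall it ranked 914 of all genes tested.

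The rest of the NDRG family was at lower levels. NDRG2, described as a growth-restraining relative, fell from 6.82 ± 0.355 to 2.58 ± 0.466 CPM (log2 fold change -1.40, SE 0.16, edgeR adjusted p = 2.67e-06). NDRG4 was also lower, at 8.39 ± 0.444 and 5.99 ± 1.11 CPM (log2 fold change -0.48, edgeR adjusted p = 0.00996). NDRG3 had a log2 fold change of -0.14 and was not called (edgeR adjusted p = 0.117).

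The pair DDIT4 and NDRG1 showed the divergence on a scale that needs no library normalization. The log2 ratio of their counts within a culture was -5.07, -5.04 and -5.09 with siControl and -3.55, -3.35 and -3.53 with siZEB1. The groups did not overlap, and the means, -5.07 ± 0.023 and -3.48 ± 0.11, differed by 1.59. This pair was chosen because the members were known to move in opposite directions, so the difference is a description, and its permutation p, at the smallest possible value, entered only the adjustment over 3 pairs used for the other ratios below. Counting this pair makes the adjusted p of BNIP3 to BNIP3L smaller than it would be without it.

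CA9 and CA12 encode carbonic anhydrases IX and XII, enzymes at the outer cell surface that help tumour cells export acid by hydrating carbon dioxide. CA12, on the minus strand of chromosome 15 from 63321378 to 63382161, had 139, 161 and 144 counts in the siControl cultures and 96, 91 and 103 in the siZEB1 cultures, equal to 6.54, 7.19 and 7.47 against 5.09, 4.73 and 5.38 CPM. The groups did not overlap, and the highest siZEB1 culture was below the lowest siControl culture. CA12 fell from 7.07 ± 0.479 to 5.07 ± 0.325 CPM (log2 fold change -0.48, SE 0.13, 95% interval -0.76 to -0.20, edgeR adjusted p = 0.00765). Of genes with an annotated stretch after the stop codon, 20.5% of those called lower held the bases GAACACA there. So did 6.45% of those called higher and 8.17% of those not called. CA12 held them at base 3477 of 4907, ANKRD37 also held them, and NDRG1 did not. How these bases were picked is not stated here, and the shares take no account of the length of the stretch. The shares are therefore a description only. Loss of ZEB1 and other effects of the siRNA could not be told apart, and the part of these bases was not tested.

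CA9, on the plus strand of chromosome 9 from 35673856 to 35681159, was scarce. It had 22, 39 and 17 counts in the siControl cultures and 11, 23 and 12 in the siZEB1 cultures, equal to 1.03, 1.74 and 0.882 against 0.583, 1.20 and 0.627 CPM. The second culture was the highest in each group, and the groups overlapped. The means were 1.22 ± 0.459 and 0.802 ± 0.342 CPM and the log2 fold change was -0.61 (95% interval -1.38 to 0.15, edgeR adjusted p = 0.192), so at this depth neither no change nor a fall larger than that of NDRG1 lies outside the interval. Exons of ARHGEF39 on the opposite strand cover 38.5% of the exonic bases of CA9. ARHGEF39 itself was at 35.2 ± 1.70 and 41.0 ± 0.860 CPM, far above CA9, with a log2 fold change of 0.22 (edgeR adjusted p = 0.0229), and its part in the CA9 counts was not tested.

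The log2 ratio of CA12 to CA9 counts within a culture was 2.63, 2.03 and 3.05 with siControl and 3.07, 1.96 and 3.05 with siZEB1. The groups overlapped and the means differed by 0.12 (exact permutation test, two-sided, n = 3 per group, p = 0.8, adjusted over 3 pairs 0.8, smallest p possible 0.1). The sign of this difference rests on single cultures, since it was -0.15 without the second siControl culture, -0.064 without the first siZEB1 culture and -0.055 without the third. Of 5 other carbonic anhydrase genes tested, only CA13, which encodes a cytosolic enzyme, was called, a share near the 21.2% of all genes called lower. It was at 5.67 ± 0.664 and 4.03 ± 0.777 CPM (log2 fold change -0.49, edgeR adjusted p = 0.025). CA2, CA3, CA4 and CA7 were below the filter or not listed.

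P4HA1 and KDM3A encode oxygen-dependent hydroxylases with different substrates. KDM3A removes methyl groups from lysine 9 of histone H3, and it lies on the plus strand of chromosome 2 from 86440647 to 86492716. It had 1475, 1714 and 1279 counts in the siControl cultures and 1740, 1622 and 1692 in the siZEB1 cultures, equal to 69.4, 76.5 and 66.3 against 92.2, 84.4 and 88.4 CPM. All siZEB1 cultures were above all siControl cultures after scaling, although the raw counts overlap. The rise was from 70.8 ± 5.23 to 88.3 ± 3.91 CPM (log2 fold change 0.32, SE 0.071, 95% interval 0.17 to 0.47, edgeR adjusted p = 0.00166).

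Among 7 other demethylases of histone H3 lysine 9, KDM7A was higher and KDM4C and KDM3B were lower, shares near the 19.0% and 21.2% of all genes. KDM3B, the closest relative of KDM3A in this list, was at 169.5 ± 11.7 and 143.8 ± 4.97 CPM (log2 fold change -0.24, edgeR adjusted p = 0.00718). KDM7A was at 143.2 ± 14.1 and 181.8 ± 19.7 CPM (log2 fold change 0.34, edgeR adjusted p = 0.00274). KDM4C, itself a hypoxia-inducible gene, was at 29.3 ± 1.5 and 22.3 ± 1.86 CPM (log2 fold change -0.39, edgeR adjusted p = 0.0015).

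P4HA1 encodes the catalytic α subunit of collagen prolyl 4-hydroxylase and lies on the minus strand of chromosome 10 from 73007217 to 73096974, 0.733 Mb from the start of DDIT4. It had 1344, 1311 and 1086 counts in the siControl cultures and 1254, 1309 and 1290 in the siZEB1 cultures, equal to 63.2, 58.5 and 56.3 against 66.4, 68.1 and 67.4 CPM. The siZEB1 cultures were above the siControl cultures by a small margin. The level was 59.4 ± 3.51 and 67.3 ± 0.830 CPM (log2 fold change 0.18, SE 0.068, 95% interval 0.037 to 0.32, edgeR adjusted p = 0.0432). This call was lost in 8 of 12 alternatives, with adjusted p between 0.023 and 0.142 over the 12, among them 5 of the 6 fits that left out a culture. The exception was the fit without the first siControl culture, where the log2 fold change was 0.23.

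The partner of P4HA1 moved the other way. P4HB, protein disulfide isomerase, which is the β subunit of the same enzyme, fell from 261.5 ± 16.5 to 77.2 ± 3.38 CPM (log2 fold change -1.76, SE 0.066, edgeR adjusted p = 4.52e-12). Of the 10 genes of collagen hydroxylation tested besides P4HA1, P4HB included, 5 were lower and none was higher at an adjusted p under 0.05 in edgeR's test, where 21.2% of all genes were lower and 19.0% higher, and the median log2 fold change was -0.25. CRTAP, a subunit of the prolyl 3-hydroxylase complex, fell from 198.0 ± 3.39 to 130.1 ± 3.23 CPM and P3H3 from 50.1 ± 6.32 to 31.2 ± 3.04 CPM. PLOD1, a lysyl hydroxylase, was at 95.4 ± 5.78 and 70.8 ± 1.7 CPM. P3H2 was called lower (log2 fold change -0.51, edgeR adjusted p = 0.0418), but this was lost in 8 of 12 alternatives, with adjusted p up to 0.141. P4HA2, the paralog of P4HA1 that is also hypoxia-inducible, was at 43.2 ± 1.7 and 43.0 ± 1.80 CPM (log2 fold change -0.0073, edgeR adjusted p = 0.946).

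BNIP3 and BNIP3L (NIX) encode related proteins of the outer mitochondrial membrane that recruit autophagosomes and so remove mitochondria. BNIP3L, on the plus strand of chromosome 8 from 26382898 to 26505636, had 776, 855 and 696 counts in the siControl cultures and 594, 682 and 700 in the siZEB1 cultures, equal to 36.5, 38.2 and 36.1 against 31.5, 35.5 and 36.6 CPM. The third siZEB1 culture lay within the control range. The log2 fold change was -0.098 (95% interval -0.26 to 0.067, edgeR adjusted p = 0.342), an interval that leaves no room for a change as large as that of ADM or NDRG1. Exons of PNMA2 and SDAD1P1 on the opposite strand overlap 8.96% of BNIP3L, and PNMA2 was lower with siZEB1 (log2 fold change -0.74, edgeR adjusted p = 2.07e-05).

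BNIP3, on the minus strand of chromosome 10 from 131966455 to 131982013, was far less abundant. It had 45, 47 and 38 counts in the siControl cultures and 34, 53 and 45 in the siZEB1 cultures, equal to 2.12, 2.10 and 1.97 against 1.80, 2.76 and 2.35 CPM. The siZEB1 cultures spread on both sides of the controls. The log2 fold change was 0.16 (95% interval -0.29 to 0.61, edgeR adjusted p = 0.591). The log2 ratio of BNIP3 to BNIP3L counts was -4.15 ± 0.047 with siControl and -3.91 ± 0.22 with siZEB1, a difference of 0.24 with overlapping groups (exact permutation test, two-sided, n = 3 per group, p = 0.2, adjusted over 3 pairs 0.3). The difference was 0.12 without the second siZEB1 culture and 0.34 without the first.

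Of 11 other mitophagy genes tested, 4 were higher (36.4%) and 3 lower (27.3%), against 19.0% and 21.2% of all genes. Among the receptors, BCL2L13 was at 68.7 ± 1.15 and 95.4 ± 4.10 CPM (log2 fold change 0.47, edgeR adjusted p = 1.76e-05) and FUNDC1, which like BNIP3 and BNIP3L sits in the outer membrane, at 21.5 ± 1.12 and 29.4 ± 0.975 CPM (log2 fold change 0.45, adjusted p = 0.000275). The receptors FKBP8 and PHB2 were not called. MAP1LC3B and GABARAPL2, which encode proteins of the autophagosome membrane, were the other two that were higher. PINK1, the kinase of the ubiquitin-driven route, fell from 10.4 ± 0.694 to 6.48 ± 0.347 CPM (log2 fold change -0.69, SE 0.12, edgeR adjusted p = 0.000144), with 39.4% of its exonic bases shared with an antisense gene. The adaptors CALCOCO2 and SQSTM1 were lower.

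ANKRD37, a small ankyrin repeat protein of little-known function, is a direct HIF target on the plus strand of chromosome 4 from 185396021 to 185400628. It had 53, 67 and 35 counts in the siControl cultures and 41, 37 and 45 in the siZEB1 cultures, equal to 2.49, 2.99 and 1.82 against 2.17, 1.92 and 2.35 CPM. All siZEB1 values lay within the control range. The log2 fold change was -0.19 (95% interval -0.66 to 0.28, edgeR adjusted p = 0.527). Exons of UFSP2 on the opposite strand overlap 35.2% of its exonic bases, and UFSP2 was at 22.6 ± 2.0 and 26.5 ± 1.48 CPM (log2 fold change 0.22, edgeR adjusted p = 0.0513). Over all partner genes of the 10 that were tested, 43 in number, 7 were higher (16.3%), 15 were lower (34.9%) and 21 were not called, against 19.0% higher and 21.2% lower among all genes. PLOD1 and KDM4C, both lower, also belong to the wider hypoxia list below, so the counts of the lists are not independent.

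**Figure D3:**
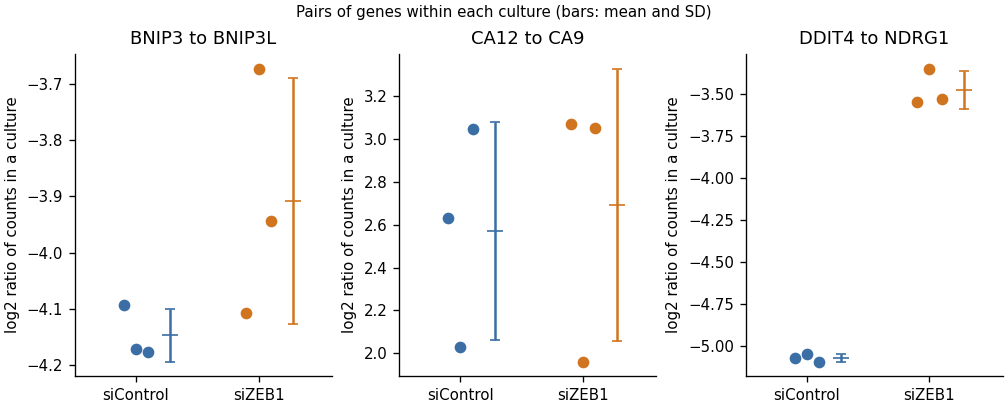
The log2 ratio of the counts of 2 genes within each culture (vertical axis, a different range in each panel) for BNIP3 to BNIP3L, CA12 to CA9 and DDIT4 to NDRG1, with 3 points per group (horizontal axis) and bars for the mean and SD. The siControl points of DDIT4 to NDRG1 lie near -5.07 and the siZEB1 points near -3.48, without overlap, while the groups of the other pairs overlap.

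The split among the 10 genes was also present in a wider list of 51 other hypoxia-inducible genes outside glycolysis. Of the 43 tested, 11 were higher, 16 lower and 16 not called, 25.6% and 37.2% of the list against 19.0% and 21.2% of all genes, and the median log2 fold change was -0.097. The groups did not overlap for 27 of the 43, and for 49.5% of all genes tested. By role, 3 of 9 secreted vascular and growth factors were higher and 3 lower, and of 9 genes of chromatin and transcription 1 was higher and 5 were lower. Of 10 genes of mitochondria, lipid and glycogen, 2 were higher and 2 lower, and of 5 genes of matrix and protein folding 1 was higher and 2 were lower. Both oxygen-sensing genes, EGLN1 and EGLN3, were lower, and of 8 genes of other roles 4 were higher and 2 lower. Differences between roles were not tested. The 8 below the filter were STC1, IGFBP3, EPO, TF, PLOD2, COX4I2, PPP1R3C and MIR210HG.

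The named rises in this list had smaller log2 fold changes than ADM. VEGFA, the main angiogenic growth factor and a HIF target like ADM, rose from 56.5 ± 0.999 to 80.2 ± 3.48 CPM (log2 fold change 0.51, SE 0.066, edgeR adjusted p = 1.09e-05). CAV1, the coat protein of caveolae, rose by 0.82 on the log2 scale, from 5.26 ± 0.308 to 9.27 ± 0.748 CPM. ERO1A, an oxidase that drives disulfide formation, rose by 0.66, from 92.9 ± 6.45 to 146.6 ± 8.48 CPM. NARF (log2 fold change 0.43) and TFRC, the transferrin receptor (0.41), followed.

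Among the falls, EGLN3 (23.3 ± 0.993 to 9.91 ± 1.47 CPM) and KDM5B (118.4 ± 8.49 to 50.6 ± 2.80 CPM) each had a log2 fold change of -1.23, further than NDRG1. EGLN3 is an oxygen-sensing prolyl hydroxylase and KDM5B a histone H3 lysine 4 demethylase. HMOX1, heme oxygenase, fell from 55.7 ± 3.13 to 33.0 ± 1.06 CPM (log2 fold change -0.76), and ANGPTL4, a secreted inhibitor of lipoprotein lipase, from 23.3 ± 3.60 to 13.8 ± 1.01 CPM (log2 fold change -0.75). PLIN2, the lipid droplet coat protein, fell from 477.3 ± 9.997 to 315.0 ± 10.8 CPM (log2 fold change -0.60). The largest edgeR adjusted p among these 5 was that of ANGPTL4, 4.26e-05.

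**Figure D4:**
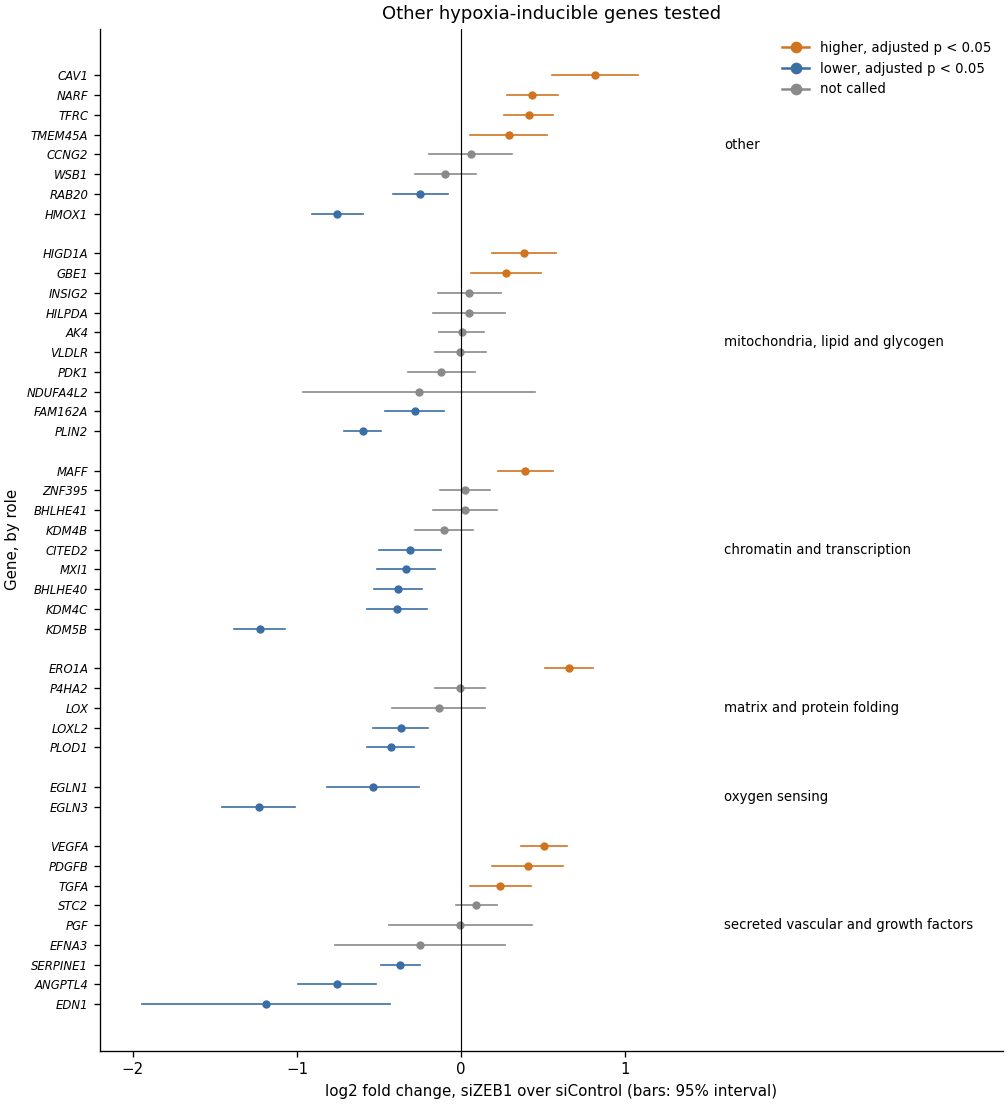
Change of the 43 other hypoxia-inducible genes tested, grouped by role (vertical axis), as log2 fold change of siZEB1 over siControl (horizontal axis) with bars for the 95% interval and colours for the call at an adjusted p under 0.05. The 11 genes called higher and 16 called lower are spread over the roles, and EGLN3 and KDM5B lie furthest to the left together with EDN1, whose bar is wide.

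Several genes of the HIF subunits and their regulators were lower in RNA. HIF1A was at 275.5 ± 20.5 and 289.3 ± 20.6 CPM, with overlapping groups and a log2 fold change of 0.071 (95% interval -0.070 to 0.21, edgeR adjusted p = 0.427). EPAS1, which encodes the HIF-2α subunit, fell from 653.3 ± 30.6 to 257.0 ± 6.50 CPM (log2 fold change -1.35, SE 0.055, edgeR adjusted p = 1.02e-11). HIF1AN, the asparagine hydroxylase that blocks HIF's coactivator contact, fell from 201.9 ± 7.13 to 111.7 ± 4.32 CPM (log2 fold change -0.85), and EGLN1 and ARNT were lower by 0.54 and 0.46 on the log2 scale. VHL was higher by 0.25. In all, of 8 HIF subunits and regulators tested, 1 was higher and 5 lower, against 19.0% and 21.2% of all genes, and EGLN1 and EGLN3 belong to the wider hypoxia list as well. HIF protein was not measured in these files, and the part of these changes in the values of the 10 genes was not tested.

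**Figure D5:**
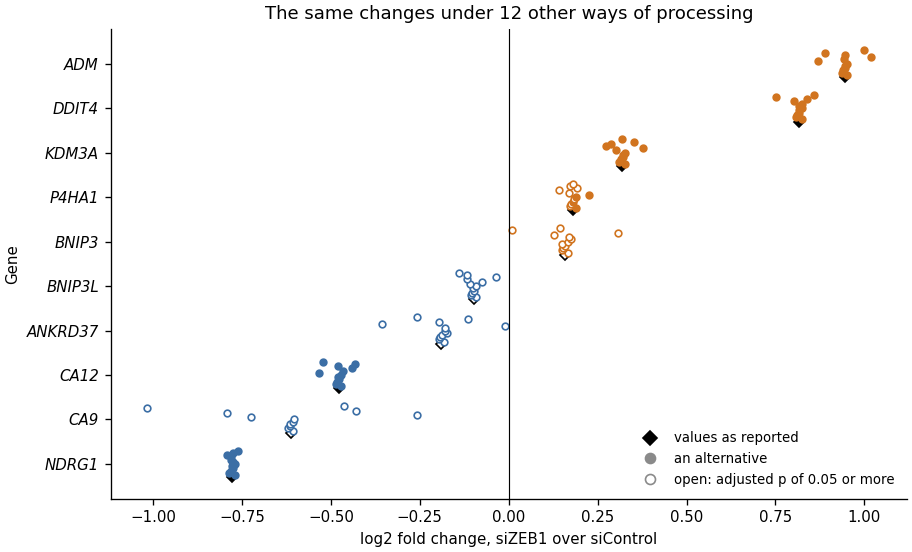
Change of each of the 10 genes on the log2 scale (horizontal axis) as reported (black diamonds) and under 12 other ways of processing (circles, open where the adjusted p was 0.05 or more). ADM, DDIT4, KDM3A, CA12 and NDRG1 have only filled circles, P4HA1 has open and filled ones, and CA9 spans -1.02 to -0.26.

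Profiles across the 6 cultures were compared with those of the 9029 genes at a mean of 10 CPM or more. By Euclidean distance of centred log2 CPM, the genes nearest to ADM were IFT52 (distance 0.065), CCDC9 (0.109) and CSK (0.124), with log2 fold changes of 0.91, 0.95 and 0.87. The genes nearest to NDRG1 were ALKBH5 (distance 0.0642), MRPS10 (0.0814) and UXS1 (0.0824), with log2 fold changes of -0.83, -0.80 and -0.73.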

How the data were processed

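RNA of 6 SW480 cultures, 3 per group, was sequenced by the authors on an Illumina instrument. The authors deposited raw read counts per Ensembl gene for each culture, not normalized. The submitters' processing notes name Trimmomatic, HISAT2, SAMtools and featureCounts on hg38, and versions, annotation and strand setting are not given in the sources used here.

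Genes were kept by edgeR's filterByExpr, scaled by TMM and compared by the quasi-likelihood F-test of edgeR without covariates, two-sided,, with Benjamini-Hochberg adjustment over 14996 genes (R 4.3.3, edgeR 4.0.16, limma 3.58.1, DESeq2 1.42.0, Python 3.11.15). The common biological coefficient of variation was 6.58%. Library totals limit precision mainly for CA9, BNIP3 and ANKRD37. Replicates differed by 2.18 to 8.58 times sampling noise (chi-square over degrees of freedom), so none was a copy of another. The test was tested on simulated data.

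The 10 genes and all lists were chosen with earlier results of these data known. Named were the 10 genes, ZEB1, HIF1A, VEGFA, the 5 largest rises and falls of the wider hypoxia list (called, no overlap, mean of at least 1 CPM), partners of the 10 genes called with an absolute log2 fold change of at least 0.5, PAM, P4HB and the 3 nearest profiles of ADM and NDRG1. Log2 ratios within a culture used counts plus 0.5. Profile distances used log2 of CPM plus 0.5. Positions and exon overlaps came from GENCODE 29, which matched 31059 of 32029 genes. Alternatives were other size factors, other filters, DESeq2, a block for the replicate number, omission of each culture, other call rules and, for ratios, other prior counts.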

Additional observations from a re-analysis of the deposited data

How the results depend on the processing

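Of 31 single-gene results each refitted in 12 ways (372 values), 356 kept their direction and their side of the threshold and 16 lost the call, 8 for P4HA1 and 8 for P3H2. None changed sign. Leaving out each culture in turn gave 3 to 4 of the 10 genes higher and 2 lower, and 8 to 9 and 14 to 16 of the wider hypoxia list. Over all genes, the same fits called 2305 to 2928 higher and 2637 to 3311 lower, of 15329 to 15391 tested. With all cultures, 2849 were higher and 3186 lower of 14996. Requiring a fold change above 1.5 with an unadjusted p under 0.001 left 2 of the 10 genes higher (ADM and DDIT4) and 1 lower (NDRG1), where 4.52% and 6.70% of all genes passed, and 2 higher and 5 lower of the wider list. With an unadjusted p under 0.05 the counts were 2 and 1 of the 10 genes, against 7.21% and 9.35% of all genes, and 2 higher and 6 lower of the wider list. The difference in the log2 ratio of CA12 to CA9 ranged from -0.15 to 0.49 as each culture was left out, and was -0.15, -0.064 and -0.055 in the fits named above. The cause was not tested.

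Replicate numbers in the labels showed no sign of pairing, since deviations of cultures with the same number correlated at -0.052, -0.088 and -0.20. These deviations were taken from the mean of each group of 3, so the values cannot show that the samples were unpaired. With the replicate number as a block, 4968 genes were called (2289 higher, 2679 lower) against 6035 without it, and of the 10 genes 3 were higher and 2 lower, P4HA1 being lost (adjusted p = 0.142). Low counts limit CA9, BNIP3 and ANKRD37, whose intervals hold both no change and changes of the size seen in other genes.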
